A study of Homo sapiens with 8 samples.

Results

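The genes described here are 51 genes of DNA replication and S phase, the stretch of the cell cycle in which the genome is copied, followed in 143B cells with and without a NELL1 knockout plasmid. They were taken by name from a list of replication genes. None of the 51 had a blank cell and each had a mean log2 value of at least 1, so all 51 were among the 9016 genes tested, out of 54174 gene symbols in the deposited table. 143B is an established human osteosarcoma cell line, a bone-forming tumour line known for its lack of thymidine kinase activity. NELL1 encodes a secreted protein known for promoting bone formation. The control group was 143B cells transfected with a vector plasmid, and the knockout group was 143B cells transfected with a plasmid labelled for NELL1 knockout. Both groups were transfected transiently and sampled after 48 h, and the labels name no selection of transfected cells and no cloning. Total RNA was sequenced in 4 libraries per group. The series describes these as biological replicates, and the labels name no separate cultures, so the p-values below measure the spread between these libraries. The titles number the replicates 1 to 4 in each group, and libraries are called control 1 to 4 and knockout 1 to 4 here.

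Replication begins when the origin recognition complex, CDC6 and CDT1 load the ring of MCM proteins onto DNA before S phase. Cyclin-dependent and DBF4-dependent kinases then let CDC45 and the GINS proteins join the ring and turn it into an active helicase, after which primase and the replicative polymerases, held by the PCNA clamp, copy each strand. Many of the genes involved are known targets of the E2F transcription factors, which are released from the retinoblastoma protein late in G1, and their mRNA levels are often read as a sign of proliferation.

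The promoters of these genes carry known sequence motifs, shown here because the genes are commonly treated as one co-regulated group. RefSeq promoter windows (build GRCh38.p14, 250 bases before to 50 bases after the annotated start) were matched by symbol for 44 of the 51 genes, giving 56 windows. CCNE2, GINS4, MCM4, MCM5, POLD3, RPA2 and RPA3 were not matched. The E2F motif searched was TTTCCCGC or TTTGGCGC on either strand, and the second motif was CCAAT, the NF-Y box, on either strand. At least 1 E2F motif lay in a window of 19 of the 44 genes (43.2%), against 750 of 27305 genes in the whole promoter table (2.75%). By single windows of the same length the shares were 33.9% of 56 and 2.27% of 35116. CCAAT lay in 27 of the 44 genes (61.4%), against 39.7% of all genes, and no E2F match overlapped a CCAAT match in these windows. The whole promoter table was neither limited to the genes tested here nor matched to the 44 genes in any way, so these shares compare unlike sets. A match is only a match of letters. The 250 bases before the start of 6 genes follow, 5′ to 3′ on the gene's own strand, with the motif in capitals.

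RFC3 (chr13:33817899-33818148, plus strand), ORC3 (chr6:87589885-87590134, plus strand) and E2F1 (chr20:33686386-33686635, minus strand) had an E2F motif and passed the test for a difference between the groups. The motif began 55 bases before the start in RFC3, 12 in ORC3 and 20 in E2F1. In RFC3 and ORC3 it was read on the opposite strand, so the capitals show its reverse complement.
RFC3: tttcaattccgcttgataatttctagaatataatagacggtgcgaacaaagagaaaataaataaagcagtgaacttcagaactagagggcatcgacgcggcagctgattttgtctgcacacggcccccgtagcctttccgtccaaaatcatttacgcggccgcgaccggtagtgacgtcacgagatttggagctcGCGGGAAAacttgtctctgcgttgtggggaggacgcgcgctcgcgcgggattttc
ORC3: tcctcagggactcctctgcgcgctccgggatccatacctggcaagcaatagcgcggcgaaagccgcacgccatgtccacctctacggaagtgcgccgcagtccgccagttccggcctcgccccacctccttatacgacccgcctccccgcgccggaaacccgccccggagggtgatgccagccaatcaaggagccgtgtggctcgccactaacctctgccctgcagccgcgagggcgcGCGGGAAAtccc
E2F1: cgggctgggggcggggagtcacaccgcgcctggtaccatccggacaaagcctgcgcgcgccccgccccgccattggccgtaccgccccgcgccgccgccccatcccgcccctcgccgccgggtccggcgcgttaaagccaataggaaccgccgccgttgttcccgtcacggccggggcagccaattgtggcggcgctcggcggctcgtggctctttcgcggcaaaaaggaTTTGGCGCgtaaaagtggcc

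MCM6 (chr2:135876444-135876693, minus strand) and LIG1 (chr19:48170345-48170594, minus strand) had E2F motifs and did not pass the test. The motifs of MCM6 began 152 and 90 bases before the start, and that of LIG1 began 114 bases before it.
MCM6: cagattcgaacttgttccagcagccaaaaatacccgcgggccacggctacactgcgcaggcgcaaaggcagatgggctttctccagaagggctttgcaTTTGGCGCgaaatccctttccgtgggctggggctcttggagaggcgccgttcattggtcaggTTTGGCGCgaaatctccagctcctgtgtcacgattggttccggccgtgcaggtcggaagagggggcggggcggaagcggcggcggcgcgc
LIG1: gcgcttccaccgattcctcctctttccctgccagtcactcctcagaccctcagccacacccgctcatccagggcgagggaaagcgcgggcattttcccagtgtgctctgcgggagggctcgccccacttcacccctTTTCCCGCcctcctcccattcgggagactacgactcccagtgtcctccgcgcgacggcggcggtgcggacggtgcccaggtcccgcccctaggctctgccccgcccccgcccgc

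RRM2 (chr2:10122489-10122738, plus strand) had the largest difference of the 51 genes and no E2F motif of these letters in the windows searched. The capitals mark its 3 CCAAT boxes, which began 123, 93 and 66 bases before the start. CCAAT on either strand also lay in the windows of E2F1 (3), MCM6 (2) and ORC3 (1), where only the E2F motif is in capitals.
RRM2: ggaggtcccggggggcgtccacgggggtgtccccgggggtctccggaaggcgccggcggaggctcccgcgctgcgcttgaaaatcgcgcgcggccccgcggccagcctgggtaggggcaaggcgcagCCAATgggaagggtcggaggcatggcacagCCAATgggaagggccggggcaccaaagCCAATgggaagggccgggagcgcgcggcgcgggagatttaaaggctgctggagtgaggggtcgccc

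Among the 44 matched genes an E2F motif was found in 6 of the 18 that passed the test below and in 13 of the 26 that did not. The median log2 difference was 0.24 for the genes with the motif and 0.27 for those without it. CCAAT was found in 10 of 18 and 17 of 26. Neither motif was more frequent by count among the genes that passed.

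Some features of the whole data set bear on every value. The deposited values are log2 values of an unstated unit, quantile normalized between libraries, so levels are compared within a gene and not between genes. The values do not hold the sequencing depth. NELL1 itself was near the bottom of the scale, at -6.97, -6.97, -4.53 and -5.00 in controls 1 to 4 and at -4.82, -5.87 and -6.96 in knockouts 1, 2 and 4, with a blank in knockout 3. The difference of means was -0.01 (exact two-sided permutation test, p = 1; smallest p possible 0.0286), so the NELL1 values do not separate the groups and do not check the labels. Without control 3, control 4 or knockout 4 the sign of that difference turned, to 0.43, 0.28 and 0.52. Of 8 mesenchymal markers 6 had a value in all libraries, with VIM between 10.2 and 10.9, SPARC between 5.23 and 6.15 and TWIST1 between 1.93 and 2.35. The others were under 1 in every library: COL1A1 (-1.45 to 0.90), RUNX2 (0.05 to 0.43) and ALPL (-1.75 to -0.34). COL1A2 was at -7.55 to -4.82 in replicates 1 and 2 of both groups and blank in replicates 3 and 4. The osteoblast factor SP7 was blank throughout, as were PTPRC and CD3E of blood cells and KRT14 of epithelium. EPCAM, an epithelial marker, was present at 1.83 to 2.76.

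The libraries also fell into close pairs. Over all genes tested, the SD of the differences between 2 libraries was 0.12 for knockouts 1 and 2 and 0.13 for knockouts 3 and 4, but 0.46 to 0.50 for a library of one pair against one of the other. It was 0.10 for controls 1 and 2, 0.19 for controls 3 and 4 and 0.29 for controls 1 and 3. The 51 genes were therefore also compared in replicates 1 and 2 and in replicates 3 and 4 apart. The labels give no reason for the pairs.

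In the comparison of all 8 libraries the replication genes lay mostly higher in the knockout group. With limma and Benjamini-Hochberg adjustment over all genes, 22 of the 51 rose and 0 fell at an adjusted p under 0.05, against 13.1% of the 9016 genes called in either direction and 7.02% called higher. At an unadjusted p under 0.05 the counts were 33 higher and 0 lower, where 2675 of the 9016 genes passed in either direction. The difference (knockout minus control, log2) was positive for 50 of the 51, against 51.3% of all genes tested. It ranged from -0.32 for RFC1 to 0.73 for RRM2, with a median of 0.27 against 0.01 over all genes tested. The 4 knockout values were all above the 4 control values in 30 genes and all below them in 0, against 12.5% and 10.4% of all genes. The changes were modest: among the 22 the fold ran from 1.18 for CDC6 to 1.66 for RRM2.

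How many genes passed depended on the libraries used. The count of 22 was 8, 8, 26 and 9 without control 1, 2, 3 and 4, and 18, 13, 14 and 18 without knockout 1, 2, 3 and 4. The share of all genes called higher moved as well, to 2.54%, 2.51%, 8.21% and 2.35% without controls 1 to 4. Without knockouts 1 to 4 that share was 5.18%, 4.86%, 4.17% and 5.46%. ORC3, ORC6, MCM10, CDC45, GINS1, POLE2, RRM2 and CCNE2 passed in all 8 of these fits, and the other 14 missed the threshold in at least 1. With the replicate number as a block 18 passed, all of them higher (5.68% of all genes were called higher and 10.2% in all), of which 15 were among the 22. With the close knockout pairs averaged to 1 value each, 3 genes passed, all of them higher, against 1.20% of all genes called and 0.488% called higher: ORC6 (adjusted p = 0.0299), POLE2 (0.0378) and CCNE2 (0.0487), by limma. With a term for the sets of replicates 34 passed, 33 higher and 1 lower (RFC1), against 25.2% of all genes called and 13.8% called higher. With the pairs averaged in both groups, 0 of 51 and 0 of 9016 genes passed in limma. At an unadjusted p under 0.05 there were then 13 of the 51, all of them higher, and 706 of the 9016 in either direction. The 22 genes kept a positive difference in all 20 alternative fits in which each was tested. In each of the 22 every knockout value lay above every control value. Leaving out or averaging libraries therefore could not turn the sign, and the kept sign is no separate support.

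**Figure D1:**
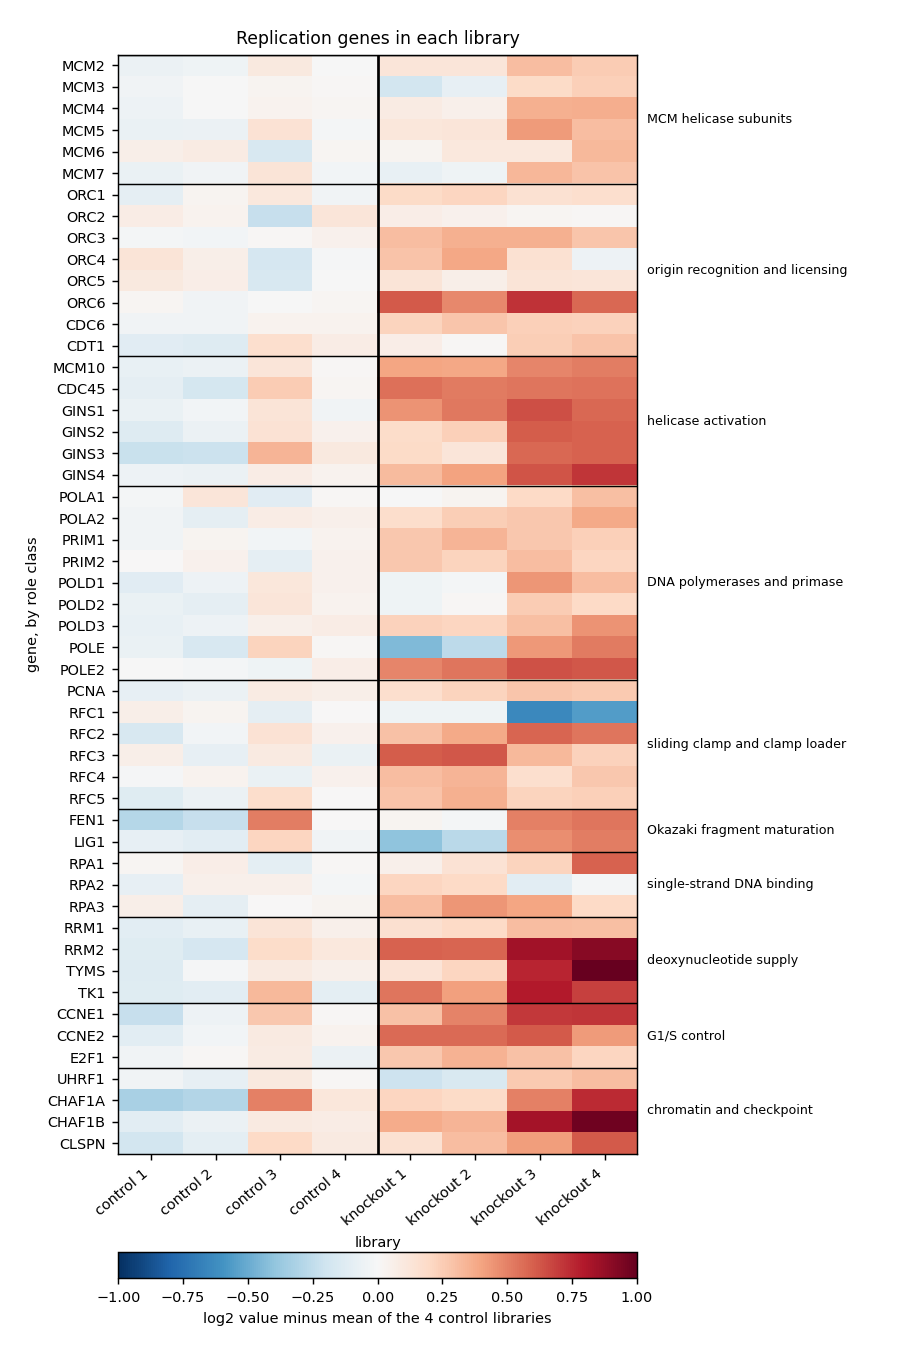
Each row is 1 of the 51 replication genes, grouped by role, and each column 1 of the 8 libraries; the colour is the log2 value minus the mean of the 4 controls and is saturated at 1 in either direction. The knockout columns are mostly above 0, knockouts 3 and 4 more than knockouts 1 and 2, and control 3 stands above the other controls in many rows.

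Control 3 was the highest of the 4 controls in 35 of the 51 genes, and control 1 was the lowest in 27. Averaged over the 51 genes, the deviation from the control mean was -0.07, -0.05, 0.09 and 0.02 in controls 1 to 4 and 0.19, 0.23, 0.37 and 0.39 in knockouts 1 to 4. All 4 knockout libraries thus lay above all 4 controls on this average, and knockouts 3 and 4 lay highest. The median SD of a gene was 0.09 among the controls and 0.14 among the knockouts, against 0.10 and 0.17 over all genes tested.

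**Figure D2:**
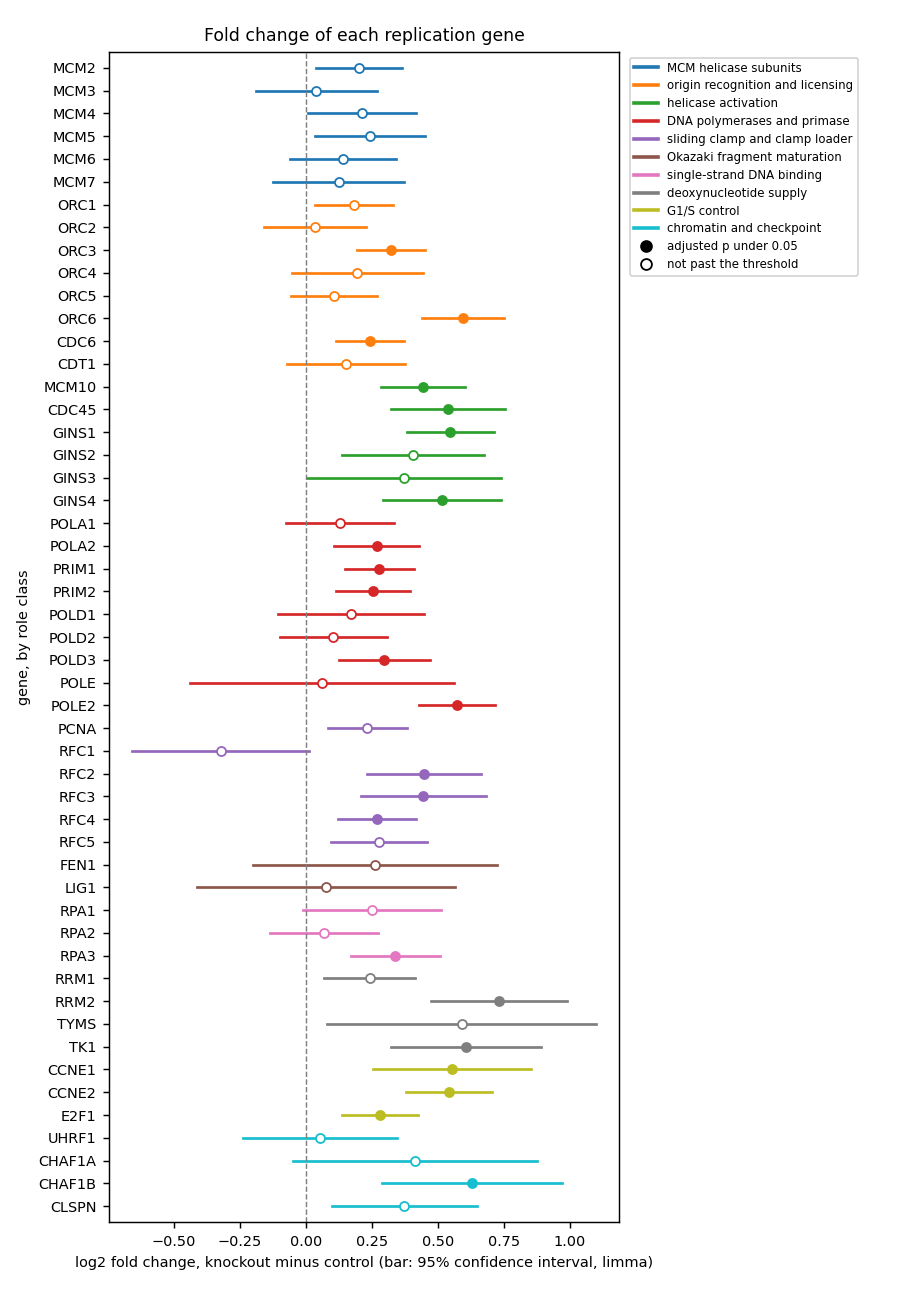
Log2 difference, knockout minus control, for each of the 51 genes with its 95% interval from limma (4 libraries per group), coloured by role and filled where the gene passed at an adjusted p under 0.05. All genes but RFC1 lie to the right of 0, and the 22 that passed run from 0.24 to 0.73.

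MCM2 to MCM7 form the ring that unwinds DNA, and 0 of the 6 passed, although all 6 differences were positive (0.04 to 0.24, median 0.17). MCM5 had the largest, with 4.63, 4.64, 4.84 and 4.68 in controls 1 to 4 and 4.82, 4.82, 5.13 and 5.01 in knockouts 1 to 4. Control 3 lay just above knockouts 1 and 2, so the groups overlapped, and the difference was 0.24 (95% interval 0.03 to 0.45, limma adjusted p = 0.117). MCM2 was 6.03, 6.05, 6.18 and 6.08 in controls and 6.20, 6.21, 6.40 and 6.34 in knockouts. Its groups did not overlap, but its difference of 0.20 did not pass (limma adjusted p = 0.101).

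Averaged over the 6 MCM genes, the deviation from the control mean was 0.01 and 0.046 in knockouts 1 and 2 and 0.29 in both knockouts 3 and 4, with controls between -0.03 and 0.045. For the helicase ring, knockouts 1 and 2 thus lay within or at the upper edge of the control range, and knockouts 3 and 4 lay well above it.

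Of the 8 origin recognition and licensing genes, which mark origins and load the MCM ring, 3 rose. ORC6, the smallest and most loosely bound origin recognition subunit, was 3.66, 3.60, 3.63 and 3.66 in controls and 4.25, 4.12, 4.36 and 4.21 in knockouts. The groups were well apart: 3.64 ± 0.03 against 4.23 ± 0.10 (SD, n = 4 each), a difference of 0.60 (SE 0.07, 1.51-fold, limma adjusted p = 0.00219). ORC3, a core subunit of the complex, was 3.16, 3.15, 3.19 and 3.22 in controls and 3.48, 3.53, 3.53 and 3.46 in knockouts. Each knockout library exceeded each control, by 0.32 on average (SE 0.06, limma adjusted p = 0.0103).

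CDC6, the ATPase that helps load the MCM ring, was 4.62, 4.63, 4.70 and 4.70 in controls and 4.89, 4.94, 4.90 and 4.89 in knockouts. The knockout values were nearly equal and all above the controls, with a difference of 0.24 (SE 0.06, limma adjusted p = 0.0274; 0.0742 with the replicate block). ORC1, ORC2, ORC4, ORC5 and CDT1 did not pass, with differences between 0.04 and 0.20.

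The helicase activation genes join the MCM ring and switch it on. Of the 6, 4 rose, and the median difference of the class was 0.48. MCM10, which helps the assembled helicase to start unwinding, was 3.60, 3.62, 3.80 and 3.68 in controls and 4.06, 4.06, 4.16 and 4.19 in knockouts. The groups did not overlap, and the difference was 0.44 (SE 0.07, 1.36-fold, limma adjusted p = 0.00728). CDC45, the helicase cofactor, was 3.42, 3.33, 3.77 and 3.53 in controls and 4.06, 4.03, 4.05 and 4.05 in knockouts. The 4 knockout values were nearly the same and the controls were spread, with control 3 closest to them (difference 0.54, SE 0.09, limma adjusted p = 0.0103).

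The 4 GINS genes encode the subunits of a single complex in the active helicase. GINS1 was 3.17, 3.20, 3.36 and 3.20 in controls and 3.68, 3.76, 3.88 and 3.81 in knockouts, without overlap. Its difference of 0.55 (SE 0.07, 1.46-fold, limma adjusted p = 0.0042) was nearly the same in both sets (0.53 for replicates 1 and 2, 0.56 for replicates 3 and 4). GINS4 was 2.90, 2.90, 3.03 and 2.99 in controls and 3.27, 3.36, 3.59 and 3.67 in knockouts. All knockouts were higher, knockouts 3 and 4 most (difference 0.51, SE 0.10, limma adjusted p = 0.0138). GINS2 and GINS3 had differences of 0.41 and 0.37 and did not pass without the block (limma adjusted p = 0.0558 and 0.165), but did with it (0.0341 and 0.0369).

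Of the 9 polymerase and primase genes 5 rose. POLE2, the second subunit of the leading-strand polymerase epsilon, was 3.35, 3.34, 3.31 and 3.42 in controls and 3.84, 3.89, 3.99 and 3.98 in knockouts. The groups were 3.35 ± 0.05 and 3.93 ± 0.07 (SD, n = 4 each), a difference of 0.57 (SE 0.06, 1.49-fold) with the lowest adjusted p of the 51 genes (limma, 0.00185). POLE, the catalytic subunit of the same enzyme, was 2.73, 2.63, 3.02 and 2.81 in controls and 2.35, 2.54, 3.23 and 3.32 in knockouts. Knockouts 1 and 2 lay below all controls and knockouts 3 and 4 above all of them, so the mean difference of 0.06 (95% interval -0.44 to 0.56) averages values on either side of the controls. Subunits of one polymerase therefore had different patterns across the libraries.

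Primase and the polymerase alpha subunits make the primers that start each new strand. PRIM1, the catalytic primase subunit, was 5.23, 5.29, 5.24 and 5.30 in controls and 5.53, 5.61, 5.54 and 5.51 in knockouts, a difference of 0.28 (limma adjusted p = 0.0177; 0.0534 with the block). PRIM2, its regulatory partner, was 2.36, 2.40, 2.26 and 2.39 in controls and 2.62, 2.57, 2.66 and 2.56 in knockouts, a difference of 0.25 (limma adjusted p = 0.0317; 0.0836 with the block). The primase genes had little spread in either group and no overlap. POLA2, the accessory subunit of polymerase alpha, was 2.85, 2.80, 2.96 and 2.94 in controls and 3.06, 3.13, 3.16 and 3.27 in knockouts (difference 0.27, limma adjusted p = 0.041; 0.0645 with the block). POLD3, a subunit of the lagging-strand polymerase delta, was 2.41, 2.44, 2.54 and 2.56 in controls and 2.72, 2.70, 2.79 and 2.94 in knockouts (difference 0.30, limma adjusted p = 0.0364). Both also had every knockout above every control. POLA1, POLD1 and POLD2, with differences of 0.13, 0.17 and 0.10, did not pass.

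The sliding clamp PCNA and the RFC complex that loads it gave 3 genes that rose of 6. RFC2 was 4.47, 4.61, 4.78 and 4.68 in controls and 4.92, 5.02, 5.22 and 5.17 in knockouts, with no overlap (difference 0.45, SE 0.09, 1.36-fold, limma adjusted p = 0.0191). RFC3 was 1.77, 1.63, 1.80 and 1.65 in controls and 2.32, 2.33, 2.04 and 1.94 in knockouts. Here knockouts 1 and 2 were the highest, and the difference of 0.44 (SE 0.10, limma adjusted p = 0.0281) split into 0.62 for replicates 1 and 2 against 0.27 for replicates 3 and 4. RFC4 was 4.87, 4.91, 4.82 and 4.93 in controls and 5.19, 5.22, 5.05 and 5.15 in knockouts (difference 0.27, limma adjusted p = 0.0299; 0.0578 with the block).

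PCNA itself was 6.27, 6.29, 6.43 and 6.41 in controls and 6.52, 6.57, 6.63 and 6.62 in knockouts. All 4 knockouts were above all 4 controls, and the difference of 0.23 was just outside the threshold (limma adjusted p = 0.0506). RFC5 was in a like position, with a difference of 0.28 and an adjusted p of 0.0525 by limma. RFC1, the large subunit of the loader, was the only 1 of the 51 with a negative difference. It was 4.55, 4.52, 4.41 and 4.50 in controls, 4.45 and 4.45 in knockouts 1 and 2, and 3.85 and 3.94 in knockouts 3 and 4. Knockouts 1 and 2 were within the control range and knockouts 3 and 4 well under it, and the mean difference of -0.32 (95% interval -0.66 to 0.01) did not pass (limma adjusted p = 0.182).

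FEN1 and LIG1 trim and seal the short Okazaki fragments of the lagging strand, and neither passed. FEN1 was 5.03, 5.09, 5.84 and 5.33 in controls and 5.35, 5.31, 5.83 and 5.86 in knockouts. Control 3 was as high as knockouts 3 and 4, so the difference of 0.26 had a 95% interval from -0.20 to 0.73. LIG1 was 3.94, 3.91, 4.23 and 3.98 in controls and 3.62, 3.74, 4.48 and 4.53 in knockouts, so that knockouts 1 and 2 lay below all controls and knockouts 3 and 4 above all of them. The 95% interval of its difference was -0.41 to 0.56.

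RPA1, RPA2 and RPA3 form the complex that coats single-stranded DNA at the fork. RPA3 rose, from 3.73, 3.57, 3.67 and 3.69 in controls to 3.98, 4.11, 4.06 and 3.87 in knockouts (difference 0.34, 1.26-fold, limma adjusted p = 0.0226; 0.062 with the block). RPA2 was 4.52, 4.65, 4.65 and 4.58 in controls and 4.82, 4.80, 4.49 and 4.58 in knockouts. Only knockouts 1 and 2 were above its control range. RPA1 had a difference of 0.25 that did not pass (limma adjusted p = 0.183).

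The deoxynucleotide supply genes had the largest median difference of the 10 role classes, 0.60 over 4 genes, of which 2 rose. RRM2, the regulated small subunit of ribonucleotide reductase, was 4.32, 4.27, 4.63 and 4.54 in controls and 5.03, 5.03, 5.28 and 5.35 in knockouts. The groups were 4.44 ± 0.17 and 5.17 ± 0.17 (SD, n = 4 each), a difference of 0.73 (SE 0.11, 1.66-fold, limma adjusted p = 0.00696), and it was 0.73 in each set of replicates. TK1, the thymidine kinase of S phase, was 3.78, 3.79, 4.22 and 3.80 in controls and 4.43, 4.31, 4.69 and 4.58 in knockouts. Control 3 stood apart from the other controls but stayed under the lowest knockout (difference 0.61, SE 0.13, 1.52-fold, limma adjusted p = 0.0179).

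TYMS, which makes thymidylate, was 5.41, 5.53, 5.63 and 5.59 in controls and 5.68, 5.76, 6.31 and 6.78 in knockouts. Each knockout was above each control, but knockouts 3 and 4 far more so, and the difference of 0.59 (SE 0.22, 95% interval 0.08 to 1.10) did not pass (limma adjusted p = 0.117). RRM1, the large subunit of ribonucleotide reductase, was 6.16, 6.20, 6.40 and 6.32 in controls and 6.43, 6.47, 6.58 and 6.57 in knockouts. It did not overlap between groups and did not pass, with a difference of 0.24 (limma adjusted p = 0.0701).

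All 3 genes of G1/S control rose. CCNE1, a cyclin E that drives entry into S phase, was 2.00, 2.17, 2.50 and 2.24 in controls and 2.52, 2.73, 2.94 and 2.94 in knockouts. Control 3 came close to knockout 1, and the difference was 0.55 (SE 0.13, 1.47-fold, limma adjusted p = 0.0297). CCNE2, the other cyclin E, was 2.39, 2.47, 2.58 and 2.53 in controls and 3.06, 3.06, 3.11 and 2.91 in knockouts, clearly apart (difference 0.54, SE 0.07, 1.46-fold, limma adjusted p = 0.00426). E2F1, a transcription factor of the same step, was 4.44, 4.49, 4.56 and 4.42 in controls and 4.75, 4.83, 4.77 and 4.69 in knockouts (difference 0.28, 1.22-fold, limma adjusted p = 0.0247; 0.0538 with the block).

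**Figure D3:**
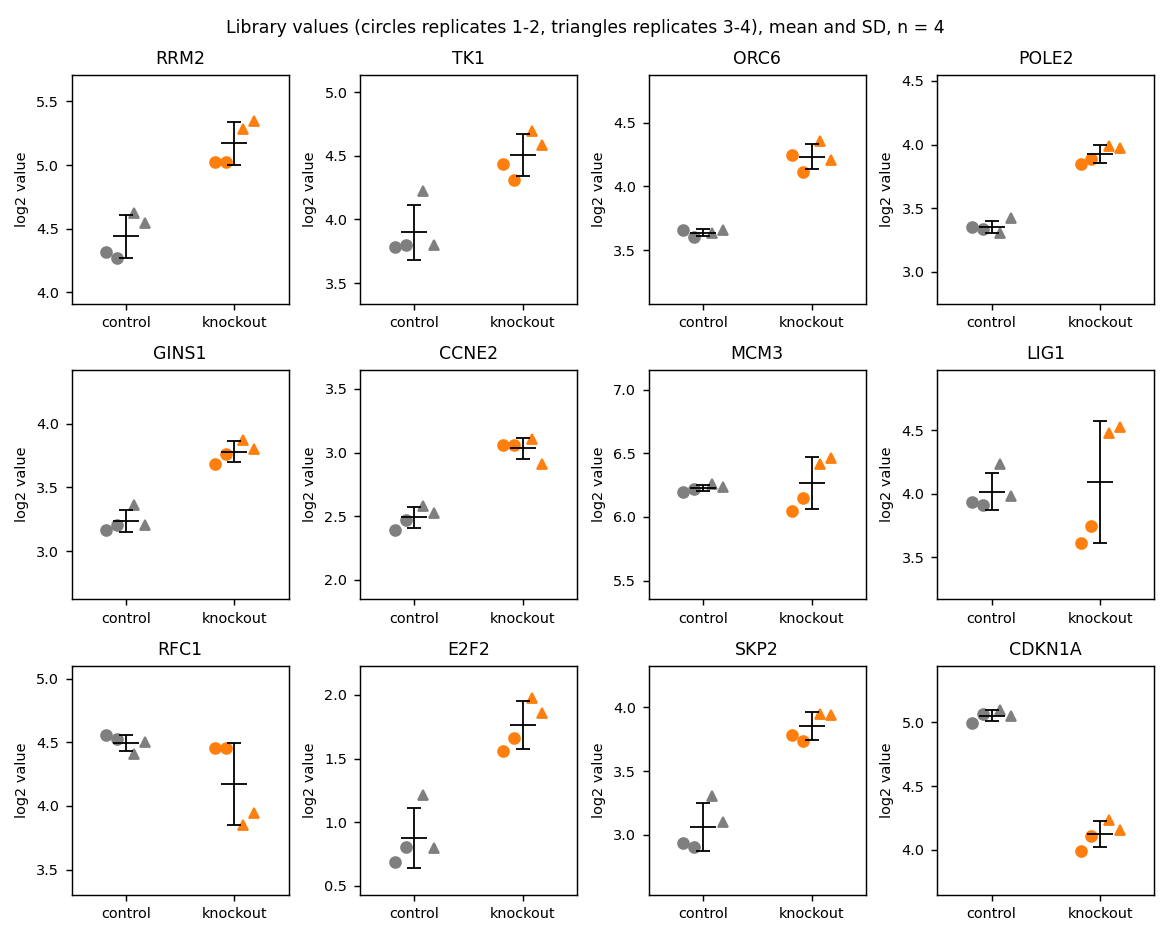
Deposited log2 values of 12 genes in every library, controls and knockouts side by side, with circles for replicates 1 and 2, triangles for replicates 3 and 4, and the mean with SD (n = 4) per group. In ORC6, POLE2 and CCNE2 the groups are apart whatever the replicate, whereas in MCM3 and LIG1 the knockout circles lie below the controls and the knockout triangles above them.

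Of the 4 chromatin and checkpoint genes 1 rose. CHAF1B, a subunit of the factor that places histones on new DNA, was 1.90, 1.95, 2.09 and 2.08 in controls and 2.37, 2.35, 2.84 and 2.98 in knockouts (difference 0.63, SE 0.15, 1.55-fold, limma adjusted p = 0.0296). Its partner CHAF1A was 2.69, 2.72, 3.52 and 3.13 in controls and 3.23, 3.21, 3.52 and 3.77 in knockouts. Control 3 was as high as knockout 3, and the difference of 0.41 did not pass (limma adjusted p = 0.213). CLSPN, which relays the replication checkpoint, had a difference of 0.37 that passed with the block (limma adjusted p = 0.0392) and not without it (0.0749). UHRF1, which helps copy DNA methylation, was 5.02, 4.97, 5.15 and 5.06 in controls and 4.85, 4.90, 5.31 and 5.36 in knockouts, again below the controls in knockouts 1 and 2 and above them in knockouts 3 and 4.

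**Figure D4:**
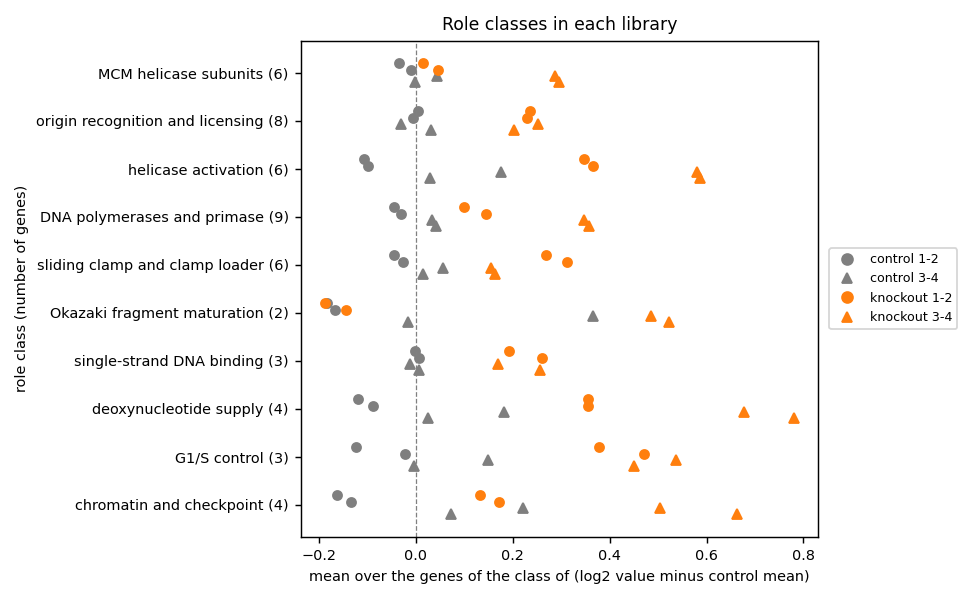
Mean deviation from the control mean (log2) over the genes of each role class, in each of the 8 libraries. Deoxynucleotide supply, helicase activation and G1/S control lie above 0.3 in all 4 knockouts, while the MCM class is at 0.01 and 0.05 in knockouts 1 and 2 and at 0.29 in knockouts 3 and 4.

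The classes differed in how even they were over the knockout libraries. The mean of origin recognition and licensing was level, at 0.23, 0.23, 0.25 and 0.20 in knockouts 1 to 4. Its members moved either way between replicates 1 and 2 and replicates 3 and 4, as ORC5 from 0.01 to 0.20 and ORC1 from 0.24 to 0.13. The interaction between the sets passed in 0 of these 8 genes. The mean of the RPA genes was 0.19, 0.26, 0.17 and 0.26, but its members were not level: RPA1 was at 0.055 for replicates 1 and 2 and 0.45 for replicates 3 and 4, and RPA2 at 0.22 and -0.08. Polymerases and primase went from 0.10 and 0.15 in knockouts 1 and 2 to 0.35 and 0.36 in knockouts 3 and 4. Clamp and clamp loader genes lay the other way, at 0.27 and 0.31 and then 0.16 and 0.16. These class means were not tested.

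In replicates 1 and 2 alone, 37 of the 51 genes were called higher and 2 lower (POLE and LIG1), against 33.0% and 26.6% of all genes called higher and lower (59.7% in all). The median difference was 0.27, and 42 of the 51 were positive, against 4872 of the 9016 genes tested. In replicates 3 and 4 alone, 28 were called higher and 1 lower (RFC1), against 15.7% and 17.4% of all genes (33.1% in all). The median was then 0.29, and 49 were positive, against 4477 of the 9016 genes tested. Each of these fits sets 2 libraries against 2, and the close pairs make their spread small. A positive difference in both sets was found in 41 of the 51 genes, against 2737 of the 9016 genes tested. Called higher in both sets were 22 of the 51 genes, against 7.53% of all genes. These are not all the same genes as the 22 called over 8 libraries: of those, 22 passed in replicates 1 and 2 and 17 in replicates 3 and 4. The 5 that did not pass in replicates 3 and 4 were CDC6 (limma adjusted p = 0.0978), RFC4 (0.087), E2F1 (0.0775), RFC3 (0.0603) and RPA3 (0.0523).

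**Figure D5:**
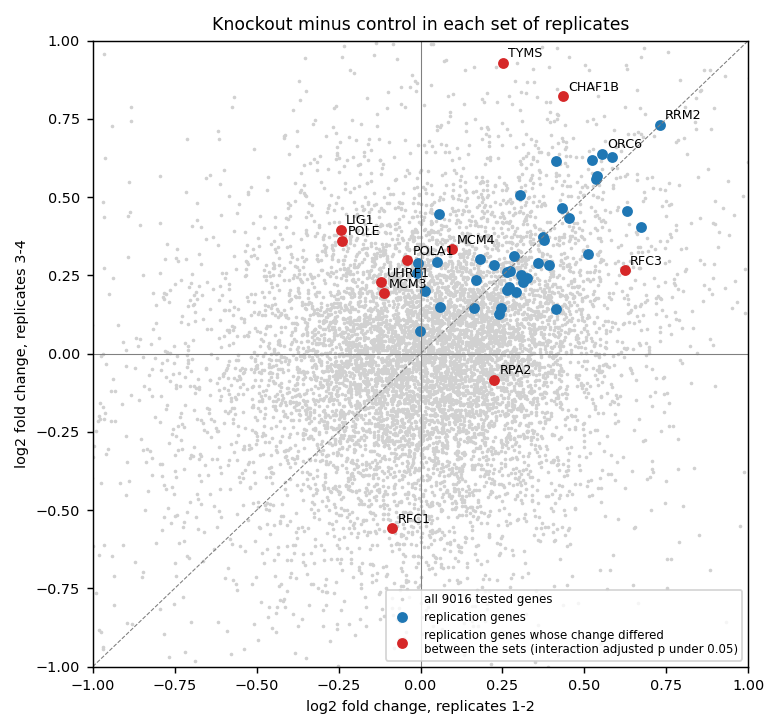
Log2 difference (knockout minus control) in replicates 1 and 2 on the x axis against that in replicates 3 and 4 on the y axis, with the 51 replication genes (red where the interaction passed, otherwise blue) over all 9016 genes tested (grey); genes beyond the axis limits of -1 and 1 are not drawn. Most of the 51 lie in the quadrant where both are positive, and POLE and LIG1 lie to the left of 0 on the x axis and above 0 on the y axis.

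The difference between the sets was tested as an interaction in limma. It passed in 11 of the 51 genes, against 41.3% of all genes. The 11 were RFC3 and CHAF1B, and 9 genes named after their values were seen: MCM3, MCM4, POLA1, POLE, RFC1, LIG1, RPA2, TYMS and UHRF1. This count ranged from 4 without knockout 1 to 18 without control 4, and was 7, 6, 7 and 5 without control 1, control 2, knockout 2 and knockout 4. The count over all genes also moved when 1 library was left out, as given in the closing section, so the moves are not particular to the replication genes.

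Among these 11 the knockout effect was more positive in replicates 3 and 4 for 8 genes. LIG1 went from -0.24 to 0.40 (interaction adjusted p = 0.00382, limma), POLE from -0.24 to 0.36 (0.00633), TYMS from 0.25 to 0.93 (0.0167) and CHAF1B from 0.44 to 0.82 (0.0112). UHRF1 (-0.12 and 0.23), MCM3 (-0.11 and 0.19), MCM4 (0.09 and 0.33) and POLA1 (-0.04 and 0.30) were of the same kind. For RFC3 (0.62 and 0.27), RFC1 (-0.09 and -0.56) and RPA2 (0.22 and -0.08) the effect was less positive, or more negative, in replicates 3 and 4.

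MCM3 shows this at the level of the libraries. It was 6.19, 6.22, 6.26 and 6.24 in controls and 6.04, 6.15, 6.42 and 6.46 in knockouts, so knockouts 1 and 2 were the lowest of the 8 libraries and knockouts 3 and 4 the highest. MCM7 was alike in part: 6.41, 6.44, 6.60 and 6.45 in controls, 6.41 and 6.43 in knockouts 1 and 2, and 6.81 and 6.76 in knockouts 3 and 4. The mean differences of 0.04 and 0.12 for MCM3 and MCM7 hide this spread, and neither passed (limma adjusted p = 0.826 and 0.485).

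Markers of the cell line and of other cell types were summed for each library. The summed level of the 8 mesenchymal markers on the linear scale was 1815 to 1918 in controls and 1241 to 1698 in knockouts, without overlap. VIM carried most of it, so this sum repeats the values of VIM and says little of the other markers. VIM fell (difference -0.43, limma adjusted p = 0.0425; 0.0507 with the block), while SPARC, on the same list, rose (difference 0.62, limma adjusted p = 0.0294). The summed epithelial markers were 5.24 to 6.71 in controls and 3.56 to 6.80 in knockouts, with KRT14 blank. EPCAM carried nearly all of that sum. The summed blood markers were 0.033 to 0.054 in controls and 0 to 0.157 in knockouts, with PTPRC and CD3E blank in all libraries. That sum was CD14 alone, at -4.90 to -4.22 (log2) in controls, blank in knockouts 1 and 2, and -2.67 and -2.94 in knockouts 3 and 4. The summed endothelial markers were 0.054 to 0.145 in controls and 0.090 to 0.129 in knockouts. In bulk RNA, a different share of cells in S phase and a different level per cell cannot be told apart, and the part of these marker differences in the replication genes was not tested.

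A wider list of 84 other replication and G1/S genes was read beside the 51. Of these, 79 were tested, 16 rose and 2 fell, against 7.02% and 6.10% of all genes, and the median difference was 0.16. E2F2, an activating E2F factor, was 0.69, 0.80, 1.22 and 0.80 in controls and 1.56, 1.66, 1.98 and 1.86 in knockouts, 1.85-fold higher (difference 0.89, SE 0.14, limma adjusted p = 0.00673). SKP2, which marks cell cycle inhibitors for degradation, was 2.93, 2.91, 3.31 and 3.10 in controls and 3.78, 3.73, 3.95 and 3.94 in knockouts, 1.73-fold higher (difference 0.79, SE 0.10, limma adjusted p = 0.00417). DUT, which keeps uracil out of DNA, was 4.15, 4.26, 4.54 and 4.45 in controls and 4.87, 4.86, 5.32 and 5.36 in knockouts, 1.68-fold higher (difference 0.75, SE 0.15, limma adjusted p = 0.0146). All 3 had every knockout above every control, and none of them passed with the knockout pairs averaged (limma adjusted p = 0.0605, 0.0512 and 0.0772). In that fit 0 of the 79 genes were called higher and 2 were called lower. Over all genes 1.20% were called in it and 0.488% called higher, so few calls are possible there for any list.

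CDKN1A and POLD4 were the 2 genes of this list called lower over 8 libraries. The largest fall and rise were of E2F5 (-1.06) and E2F8 (1.09), which did not pass (limma adjusted p = 0.128 and 0.0556). For E2F5 the sets gave -0.46 and -1.67 (limma adjusted p = 0.00139 and 0.000443). For E2F8 they gave 0.91 and 1.27 (0.000146 and 0.00217). With the block E2F8 passed (limma adjusted p = 0.0215) and E2F5 did not (0.0622). CDKN1A encodes p21, an inhibitor of cyclin-dependent kinases and of PCNA. It was 4.99, 5.07, 5.10 and 5.05 in controls and 3.99, 4.11, 4.23 and 4.15 in knockouts, far apart with little spread in either group. The difference was -0.93 (SE 0.07, a ratio of 0.524, limma adjusted p = 0.00079), nearly equal in the sets (-0.98 for replicates 1 and 2, -0.88 for replicates 3 and 4), and it passed with the knockout pairs averaged (limma adjusted p = 0.0235). POLD4, the smallest polymerase delta subunit, was 5.30, 5.38, 5.26 and 5.31 in controls and 4.70, 4.76, 4.77 and 4.77 in knockouts (difference -0.57, SE 0.06, a ratio of 0.676, limma adjusted p = 0.00143). It also passed with the knockout pairs averaged (limma adjusted p = 0.0337).

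By role, the wider list gave 1 of 10 origin firing genes, 3 of 11 fork stability and checkpoint genes, 2 of 8 chromatin replication genes, 3 of 8 further nucleotide supply genes and 2 of 16 E2F and RB family genes that rose. Among other polymerase and clamp loader subunits 2 of 12 rose and 1 fell, and among G1 and S cyclins, kinases and inhibitors 3 of 14 rose and 1 fell. With the replicate block 19 of the 79 were called higher and 2 lower, of which 15 were among the 18 above. The higher calls were then 3 origin firing genes, 1 fork stability gene (CHEK1 at 0.062 and RAD1 at 0.0851 by limma no longer passed), 1 chromatin replication gene (HELLS at 0.0783 did not pass) and 5 further nucleotide supply genes. E2F and RB family genes, other polymerase and clamp loader subunits, and G1 and S cyclins, kinases and inhibitors each gave 3 higher calls with the block. The kinase inhibitor genes CDKN2A and CDKN2B were blank in every library, and DBF4B, ATAD5 and CDKN2C were below the filter. On a list of 20 mitosis genes 1 rose, CDK1 (difference 0.44, limma adjusted p = 0.033), against 7.02% of all genes called higher. Of the 20 differences 17 were positive, against 51.3% over all genes tested, and the median was 0.20. With the block 2 rose, CDK1 and NUSAP1 (limma adjusted p = 0.0246 and 0.0388), against 5.68% of all genes called higher, and with the set term 6 rose, against 13.8%. The interaction between the sets passed in 12 of the 20 mitosis genes, against 41.3% of all genes.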

How the data were processed

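Total RNA of 143B cells was extracted with TRIzol and made into stranded libraries, per the labels' protocols. The submitters' processing notes name bcl2fastq, Partek 7.0 and GRCh38; the aligner, counting program, annotation, unit before the logarithm and treatment of blanks are not given in the sources used here. The deposited log2 values (base inferred from their range) had the same mean (1.07), median (1.77), lowest (-10.5) and highest (12.1) value in every library, so the authors' table was quantile normalized: fold changes are relative to the other genes, and a shift of most genes cannot be seen. Depth is unknown, so no counting error can be given.

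Groups and replicate numbers came from the titles. Genes without a blank cell whose mean was at least 1 were fitted with limma 3.58.1 in R 4.3.3 (no trend, no covariate), knockout minus control. Benjamini-Hochberg adjustment ran over 9016 genes, with calls at an adjusted p under 0.05. The fit was tried on simulated data with independent libraries, so that trial does not cover the close pairs. Same-numbered libraries deviated together (correlation 0.20 to 0.29 over 4 pairs, all above 0.1), as did those with the other number of the same set (0.11 to 0.31), and a fit with the replicate block is given where it changes a call or count. Named were the genes called, the largest of each role class, up to 3 rises and 3 falls of the wider list, and NELL1; others are named after their values were seen. The 51 genes and the other lists were chosen with earlier results of these data known, and a value that repeats those results is no independent support. Promoter windows were RefSeq's, GRCh38.p14. A further blood cell marker is not reported here. All 8 columns of the table were used.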

Additional observations from a re-analysis of the deposited data

Results flagged for a closer look

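Among the 38 genes named by rule or after their values were seen, 76 groups of 4 libraries were examined for a library far from the other 3, and chance alone flags about 1 group in 20. In TK1, control 3 (4.22) lay far above the other controls. In POLD4, knockout 1 (4.70) lay below the other knockouts.

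The knockout effect differed between replicates 3 and 4 and replicates 1 and 2 in 11 replication genes by the limma interaction test, where 41.3% of all genes passed. The effect in replicates 3 and 4 minus that in replicates 1 and 2 was 0.68 for TYMS (adjusted p = 0.0167), 0.64 for LIG1 (0.00382), 0.60 for POLE (0.00633) and 0.39 for CHAF1B (0.0112). It was 0.35 for UHRF1 (0.0147), 0.34 for POLA1 (0.033), 0.31 for MCM3 (0.0239) and 0.24 for MCM4 (0.0445). It was -0.47 for RFC1 (0.00385), -0.36 for RFC3 (0.0301) and -0.31 for RPA2 (0.0345). With 2 libraries per group and set, the residual spread comes from the close pairs alone.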

How the results depend on the processing

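Each choice was changed alone. The count of 1183 called genes was 729 with a mean of at least 3, 2274 with a term for the sets of replicates, 108 with the knockout pairs averaged, 0 with the pairs averaged in both groups (706 at an unadjusted p under 0.05, limma), 5380 in replicates 1 and 2 only, 2987 in replicates 3 and 4 only, and 391 to 1353 with 1 library left out. The 22 called replication genes became 34 (33 higher, 1 lower) with the set term, 3 and 0 with the pairs averaged in the knockouts and in both groups, 39 (37 higher, 2 lower) in replicates 1 and 2 only, 29 (28 higher, 1 lower) in replicates 3 and 4 only, and 8 to 26, with 0 lower, with 1 library left out. With the replicate block the counts were 924 genes and 18 replication genes, of which 15 were the same. The cause of these moves was not tested.

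The 3721 genes called for the difference between the sets were 2023 with a mean of at least 3 and 2420 to 4368 with 1 library left out, and the 11 replication genes among them were 6 without a filter on low values and 4 to 18 with 1 library left out. Among the 51 genes, values turned sign in the fit of replicates 1 and 2 alone for MCM3 (-0.11), POLA1 (-0.041), POLE (-0.24), LIG1 (-0.24) and UHRF1 (-0.12), by less for MCM6 (-0.0070), MCM7 (-0.0099) and ORC2 (-0.00070), and in that of replicates 3 and 4 alone for RPA2 (-0.084). Leaving out 1 library gave -0.025 to 0.115 for MCM3, -0.091 to 0.23 for POLE, -0.069 to 0.23 for LIG1, -0.032 to 0.14 for UHRF1 and -0.54 to 0.52 for NELL1, which was -1.16 with its blank at the lowest value. NELL1 gave no further value without knockout 3, where it was blank, and genes with a mean under 3 gave none under that filter. Fits with 2 libraries against 2 rest on the close pairs, and depth and unit are unknown.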
